A study of Canis lupus familiaris with 8 samples.

Results

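Ribosome biogenesis and nucleolar genes were examined as a module of 45 genes, chosen by name, in monolayers of MDCK GII cells that were held under mechanical stretch. All 45 symbols were found among the 37952 genes of the deposited count table, and all 45 were among the 14571 genes with enough counts to be tested. MDCK GII is an epithelial line from dog kidney. In both groups the cells were seeded on collagen-coated silicone membranes fixed to custom 6-well devices, whose wells either had a flat base or a central pillar over which vacuum pulls the membrane, and were cultured overnight. The stretch group (4 wells) was held at 18% strain, equal in both directions of the membrane, for 2 hours before lysis, and the control group (4 wells) was labelled as control and carries no other difference in the labels. No genotype, drug or transgene is named for either group. The labels describe the wells as technical quadruplicates, spread at random over several devices, and name a single line, so the spread and the p-values refer to wells and not to independent lines or animals. Each gene was read in 2 ways, stretch against control and replicates 3 and 4 against replicates 1 and 2, because the replicate numbers 1 to 4 divide the wells of both groups in the same way.

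Ribosomes are built in the nucleolus. RNA polymerase I (Pol I) copies the ribosomal DNA into a long precursor, small nucleolar RNA-protein particles (snoRNPs) modify it, a large complex named the small subunit processome folds and cuts the part that becomes the 40S subunit, and a separate set of factors builds the 60S subunit. MYC, a transcription factor that growth signals induce, is known to raise the transcription of many of these genes, and ERK signalling is known to act on RRN3, the factor that brings Pol I to its promoter. The mRNAs measured here are those of the proteins that do this work. Ribosomal RNA itself was not measured, since the libraries were made from polyadenylated RNA.

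Library depth ranged from 27047358 to 32478887 counts per well. The module took between 0.559% and 0.633% of the counts of a well, which was 154646 to 201458 counts. Epithelial markers were at high levels in every well, and all 11 listed were detected, with CDH1, which encodes E-cadherin, at 583 to 645 CPM (read counts scaled to a common library total). Of the 8 fibroblast, 6 endothelial and 7 leukocyte markers, 1, 2 and 2 had enough counts to be tested. The summed level of the fibroblast list was 1.83 to 4.22 CPM in control and 3.16 to 3.88 CPM in stretch wells, that of the endothelial list 1.54 to 2.30 and 1.33 to 2.37 CPM, and that of the leukocyte list 4.03 to 6.13 and 5.28 to 5.90 CPM. COL1A2, COL3A1, LUM, DCN, EMCN, PTPRC, CD3E, LYZ and ITGAM had 0 counts in all 8 wells.

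Levels per exon length spanned a wide range within the module. In FPKM (CPM divided by exon length in kilobases, mean ± SD over 8 wells), the histone and ribosomal protein chaperone NPM1 stood highest with 839 ± 21.3, followed by nucleolin (NCL) with 408 ± 19.9 and the rRNA 2′-O-methyltransferase fibrillarin (FBL) with 171 ± 8.16. The wells of these 3 genes overlapped neither with each other nor with those of any gene below them. MYC came next with 122 ± 22.1 FPKM, a value whose wells overlapped with those of the 60S assembly factor PES1 (85.4 ± 5.65). At the low end were DDX10 (9.54 ± 0.816), UTP20 (8.34 ± 0.825) and GRWD1 (6.21 ± 1.14). The median of the 45 members was 25.02 FPKM. Of the 44 pairs of neighbours in this order, 40 had overlapping wells, so most of the order in the middle of the range was not resolved.

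**Figure D1:**
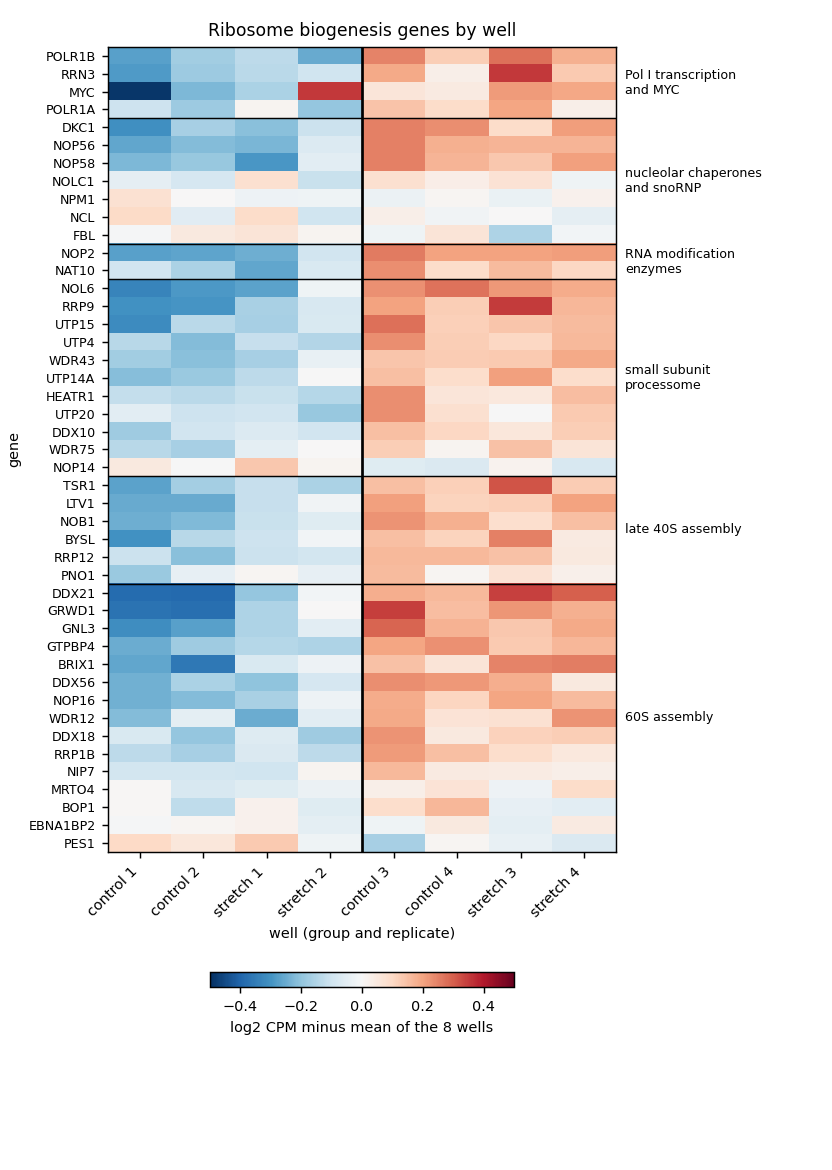
Each row is 1 of the 45 genes, each column 1 of the 8 wells, and the colour is log2 CPM minus the gene's mean over the 8 wells. Within each role the genes are sorted by their difference between replicate sets. The vertical line divides replicates 1 and 2 (left) from replicates 3 and 4 (right). Most rows change colour at that line, while control and stretch wells on the same side of it share a colour in most rows. Rows that do not turn from blue to red include NCL, NPM1, FBL, NOP14, PES1, BOP1 and EBNA1BP2.

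After 2 hours of stretch the module as a whole stayed close to its control level. Without a block, 26 members were higher and 19 lower, with log2 changes from -0.08 (UTP20) to 0.30 (MYC) and a median of 0.013. The median over all tested genes was -0.0032, and 48.2% of them were above 0. In edgeR's quasi-likelihood test without a block 0 of 45 members passed an adjusted p of 0.05, as did 0 of 14571 genes (0%), and 0 members had an unadjusted p under 0.05 against 3.97% of all genes. Not one member had every stretch well above, or every stretch well below, every control well (1.30% and 1.24% of all genes). Same-numbered wells of the 2 groups deviated together, so values from a model that compares stretch with control within each replicate number (the replicate block) are given beside each result. With it, 1 member passed, as a rise (102 of 14571 genes passed, 0.700%, of which those higher after stretch made up 0.528% of all genes), and 5 members had an unadjusted p under 0.05, or 11.1%, close to the 8.89% of all genes.

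The blocked fit also bounds the size of the changes. Its 95% intervals had a median half-width of 0.10 on the log2 scale. For 41 of the 45 members both bounds lay within 0.25 of 0, as they did for 8283 of 14571 tested genes. The members' median control level was 81.2 CPM, against 25.8 CPM for all tested genes. The other 4 members were MYC, DDX21, BRIX1 and GRWD1. Across the module the lowest bound was -0.19 (UTP20) and the highest 0.46 (MYC). Without the block the intervals were wider, for example -0.30 to 0.37 in POLR1B and -0.33 to 0.42 in NOL6. Members higher in 4 of 4 same-numbered pairs numbered 8 (MYC, RRN3, WDR75, RRP9, TSR1, NOP16, DDX21 and BRIX1), or 17.8% against 8.45% of all genes. NCL alone was lower in all 4 pairs (7.84% of all genes were).

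All 4 genes of the transcription group had a log2 change above 0, and none passed. MYC had the largest change of the module. It lies on chromosome 13 (25629077 to 25633621, plus strand) in the coordinates of the deposited table. MYC had 149, 179, 218 and 215 CPM in control replicates 1 to 4 and 187, 267, 242 and 239 CPM in stretch replicates 1 to 4. Every stretch well was above its same-numbered control well, but stretch replicate 1 was below control replicates 3 and 4, so the groups overlapped. The group means were 190.4 ± 32.8 and 234 ± 33.7 CPM (mean ± SD, n = 4 each). The log2 change was 0.30 ± 0.14 (SE) without the block and 0.30 ± 0.069 with it, with a 95% interval from 0.14 to 0.46 and 0.148 as edgeR's adjusted p, so MYC did not pass. It passed with the block under limma-voom (adjusted p = 0.0360) and, in edgeR, without the filter on low counts (adjusted p = 1.2e-10).

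RRN3, the initiation factor of Pol I, lies on chromosome 6 (28740669 to 28769347, minus strand). Its control wells had 46.7, 50.1, 64.7 and 57.9 CPM and its stretch wells 51.6, 52.9, 72.5 and 62.1 CPM in the order of the replicates. Every stretch well was above its same-numbered control well, and replicates 3 and 4 were above replicates 1 and 2 in both groups, so the groups overlapped. The log2 change with the block was 0.12 ± 0.047 (adjusted p = 0.398 by edgeR). POLR1A and POLR1B, which form the catalytic core of Pol I, changed by 0.025 ± 0.09 and 0.038 ± 0.15 without the block (adjusted p = 0.999 for both by edgeR). Their blocked 95% intervals ran from -0.071 to 0.12 and from -0.055 to 0.13. POLR1A had 88.6, 83.8, 105 and 102 CPM in control wells and 96.1, 83.3, 109 and 97.1 CPM in stretch wells. POLR1B had 95.3, 102, 137 and 125 CPM in control and 105, 96.8, 139 and 130.4 CPM in stretch wells. In both genes replicates 3 and 4 lay above replicates 1 and 2 within each group. In POLR1A stretch replicate 1 (96.1 CPM) was close to stretch replicate 4 (97.1 CPM).

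Nucleolar chaperones and snoRNP proteins changed little. This group holds NCL, NPM1, the snoRNP chaperone NOLC1, the box C/D proteins FBL, NOP56 and NOP58 that carry out and scaffold rRNA methylation, and the pseudouridine synthase DKC1. Their log2 changes without the block lay between -0.04 and 0.013, with 2 higher and 5 lower, and none of the 7 passed with the block (smallest adjusted p 0.863, edgeR). NPM1 had 1139, 1083, 1060.1 and 1089.8 CPM in control wells and 1064, 1064, 1057 and 1098 CPM in stretch wells, a change of -0.029 ± 0.032 with the block and an interval from -0.10 to 0.039. FBL had 203, 211, 201 and 214 CPM in control and 213, 206, 184 and 202 CPM in stretch wells, a change of -0.043 ± 0.04. Both genes overlapped between groups. NPM1 has many processed copies in mammalian genomes, and how the authors' counting treated reads shared between copies is not given in the sources used here, so its level is uncertain.

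Of the RNA modification enzymes, NOP2 methylates cytosine in the large rRNA and NAT10 acetylates cytosine in the small one. NOP2 had 56.2, 56.5, 81.1 and 78.03 CPM in control and 57.2, 63.5, 77.95 and 78.5 CPM in stretch wells, a log2 change of 0.034 ± 0.049 with the block (adjusted p = 0.925 by edgeR). NAT10 had 46.4, 44.5, 58.4 and 52.9 CPM in control and 41.4, 47.1, 55.3 and 53.4 CPM in stretch wells, a change of -0.036 ± 0.052 (adjusted p = 0.925). Neither gene separated control from stretch wells.

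The small subunit processome was represented by 11 members, of which 8 were higher and 3 lower (-0.08 to 0.13 without the block), and 0 passed with the block. UTP4, UTP15, WDR43, WDR75 and HEATR1 belong to the subcomplex that binds the precursor first, and their log2 changes with the block ran from -0.022 to 0.083. WDR75 had 49.8, 48.9, 59.6 and 55.3 CPM in control and 53.02, 54.9, 60.6 and 57.4 CPM in stretch wells, higher in 4 of 4 pairs, with a change of 0.083 ± 0.048 (adjusted p = 0.712 by edgeR). WDR43, the member of this group with the highest level per length, had 136, 133, 169.6 and 168 CPM in control and 137, 150.2, 169 and 176 CPM in stretch wells and a change of 0.06 ± 0.041. RRP9, a protein of the U3 snoRNP, was also higher in 4 of 4 pairs, by 0.14 ± 0.054 with the block (adjusted p = 0.425 by edgeR). NOL6 had 43.6, 45.02, 64.4 and 66.4 CPM in control and 45.6, 54.05, 63.9 and 62.5 CPM in stretch wells, so that 2 pairs were higher and 2 lower. The remaining members of the group, UTP14A, UTP20, NOP14 and the helicase DDX10, had changes from -0.08 to 0.08 with the block.

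The 6 factors of late 40S assembly are RRP12, LTV1, BYSL, TSR1, the endonuclease NOB1, which makes the final cut of the small rRNA, and its partner PNO1. They changed by -0.0042 to 0.09 with the block, and 0 passed (smallest adjusted p 0.659, edgeR). BYSL had 26.4, 29.6, 36.1 and 35.2 CPM in control and 30.3, 32.3, 38.8 and 33.6 CPM in stretch wells, a change of 0.088 ± 0.059 (adjusted p = 0.773 by blocked edgeR). PNO1 had 88.2, 97.5, 112 and 101 CPM in control and 101, 97.6, 105 and 102 CPM in stretch wells, a change of 0.031 ± 0.048. NOB1 had 64.7, 65.7, 89.3 and 86.5 CPM in control and 70.8, 73.4, 81.2 and 85.02 CPM in stretch wells, with replicates 1 and 2 higher after stretch and replicates 3 and 4 lower.

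Of the 15 factors of 60S assembly 6 had a log2 change above 0 and 9 below it. Among them DDX21 was the 1 member of the module that rose past the threshold with the replicate block. DDX21 encodes a DEAD-box RNA helicase of the nucleolus that is known to act both in Pol I transcription and in rRNA processing, and it lies on chromosome 4 (20828776 to 20854073, plus strand). It had 118, 118, 174 and 172 CPM in control replicates 1 to 4 and 135, 152, 195 and 189 CPM in stretch replicates 1 to 4. Each pair rose, yet stretch replicates 1 and 2 stayed below control replicates 3 and 4, so the groups overlapped. The means were 146 ± 32.2 and 168 ± 29.1 CPM (n = 4 each), and the log2 change was 0.21 ± 0.044 with the block (adjusted p = 0.0265 by edgeR, 95% interval 0.12 to 0.31) and 0.21 ± 0.18 without it (adjusted p = 0.999). With a block of 2 levels (replicates 1 and 2, replicates 3 and 4) the adjusted p was 0.0320. The call was lost when pair 1, 2 or 4 was left out (0.198, 0.194 and 0.0637 as adjusted p of blocked edgeR), with the change between 0.17 and 0.24, and it passed without pair 3 (0.0045).

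BRIX1, a factor of early 60S particles, had 30.8, 28.7, 40.8 and 38.5 CPM in control and 34.99, 36.2, 43.8 and 44.03 CPM in stretch wells. It was higher in 4 of 4 pairs with overlapping groups, by 0.20 ± 0.055 with the block, and did not pass (adjusted p = 0.134 by edgeR, and 0.0383 without the filter on low counts). The complex of PES1, BOP1 and WDR12, which is needed for processing of the large rRNA, showed changes from -0.07 to 0.0036 with the block. PES1 had 206, 199.7, 171 and 193 CPM in control and 210.4, 189, 187 and 183 CPM in stretch wells, and BOP1 51.3, 46.9, 54.3 and 57.4 CPM in control and 51.8, 49.1, 49.8 and 49.3 CPM in stretch wells, with no separation of the groups in either gene. The GTPase GNL3 (nucleostemin) had 43.5, 44.7, 66.05 and 60.9 CPM in control and 48.5, 51.98, 59.3 and 61.6 CPM in stretch wells, and GRWD1, the member with the lowest level, 10.4, 10.4, 17.2 and 15.1 CPM in control and 12.1, 13.5, 15.7 and 15.3 CPM in stretch wells. RRP1B, NOP16, DDX18, DDX56, GTPBP4, MRTO4, NIP7 and EBNA1BP2 changed by -0.03 to 0.08 with the block and did not pass.

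**Figure D2:**
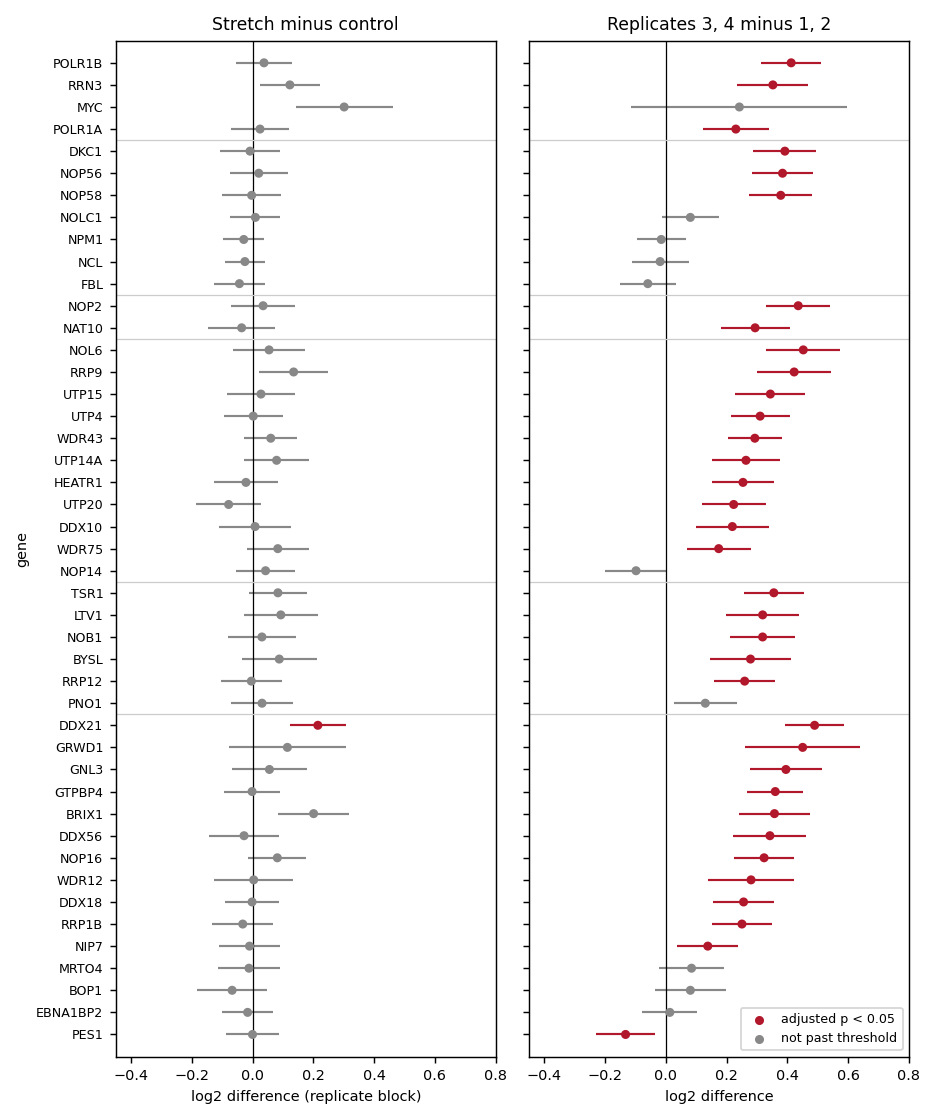
Points are log2 differences of the 45 genes and bars their 95% intervals from edgeR, for stretch minus control with the replicate block (left) and for replicates 3 and 4 minus replicates 1 and 2 (right), red where the adjusted p is under 0.05. On the left DDX21 alone is red and most points lie near 0, and on the right 34 genes are red to the right of 0 and PES1 is red to the left.

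**Figure D3:**
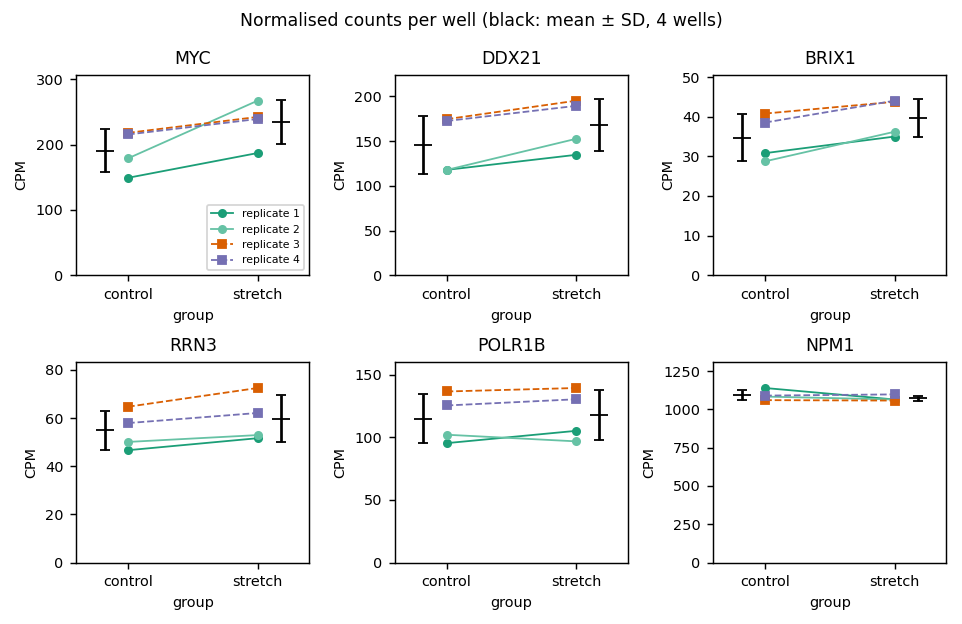
CPM per well of 6 genes, with lines joining the control and stretch wells of the same replicate number and black bars for the mean ± SD of 4 wells. All 4 lines slope upward in MYC, DDX21, BRIX1 and RRN3 while the groups overlap, 3 do in POLR1B, and replicates 3 and 4 (squares) lie above replicates 1 and 2 (circles) in DDX21, BRIX1, RRN3 and POLR1B but not in NPM1.

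The replicate number separated the wells far more than stretch did. This division is known from the same data, so its calls are given as a description of these 8 wells. The labels name no date, device or batch for the numbers. With group kept in the model, 34 of 45 members were higher in replicates 3 and 4 past the threshold of edgeR's test, or 75.6%, where 10.1% of all tested genes were. PES1 alone was lower, where 8.52% of all genes were. The members' median log2 difference was 0.28 (from -0.13 to 0.49) and that of all tested genes -0.0050. In 35 members every well of replicates 3 and 4 lay above every well of replicates 1 and 2, whichever group it came from (10.4% of all genes), and in 0 members every such well lay below (9.93%). The mean log2 CPM of the module was 6.22, 6.23, 6.55 and 6.50 in control replicates 1 to 4 and 6.29, 6.33, 6.52 and 6.51 in stretch replicates 1 to 4. The mean over all tested genes ranged from 4.19 to 4.22 over the same wells.

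Depth was 27047358 to 30655036 counts in replicates 1 and 2 and 28912414 to 32478887 in replicates 3 and 4. The 10 most abundant genes took 4.90% to 5.08% of the counts in the first set and 4.59% to 4.77% in the second, which do not overlap. The part of this share in the result was not tested.

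Every role took part in the difference, but not every gene. In the transcription group RRN3, POLR1A and POLR1B were higher in replicates 3 and 4, by 0.35 ± 0.057, 0.23 ± 0.053 and 0.41 ± 0.048 on the log2 scale. MYC itself differed by 0.24 ± 0.14 and did not pass (adjusted p = 0.318 by edgeR). Stretch replicate 2 had the highest MYC level of all wells. Both modification enzymes were higher, NOP2 by 0.44 ± 0.051 and NAT10 by 0.29 ± 0.055. In the small subunit processome 10 of 11 were higher, led by NOL6 with 43.6 to 54.05 CPM in replicates 1 and 2 and 62.5 to 66.4 CPM in replicates 3 and 4 (0.45 ± 0.059). The 5 proteins of its early subcomplex differed by 0.17 to 0.34. NOP14 was the exception (-0.10 ± 0.05, not past the threshold).

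Of the late 40S factors 5 of 6 were higher, from 0.26 (RRP12) to 0.36 (TSR1), and PNO1 did not pass (0.13 ± 0.05; edgeR, adjusted p = 0.0735). Of the 60S factors 11 of 15 were higher. DDX21 had the largest difference of the module, with 118 to 152 CPM in replicates 1 and 2 and 172 to 195 CPM in replicates 3 and 4 (0.49 ± 0.047; edgeR, adjusted p = 6.0e-07). GRWD1 had 10.4 to 13.5 CPM in the first set and 15.1 to 17.2 CPM in the second (0.45 ± 0.092), and all 4 DEAD-box helicases (DDX10, DDX18, DDX21 and DDX56) were higher, by 0.22 to 0.49. NIP7 and PES1 lay just inside the threshold, where edgeR's adjusted p were 0.0498 and 0.0484.

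The genes that were not higher were mostly those with the highest levels per length. The 8 members with the highest FPKM were all among the 11 that were not called higher, and of the other 37 members 34 were (counted after the values were seen). NCL, NPM1, NOLC1 and FBL differed by -0.019, -0.015, 0.081 and -0.059, and none passed, while NOP56 and NOP58, the partners of FBL in box C/D particles, differed by 0.38 and 0.38, and DKC1 by 0.39. FBL had 203 to 213 CPM in replicates 1 and 2 and 184 to 214 CPM in replicates 3 and 4, whereas NOP56 had 88.1 to 101 and 118 to 126 CPM. The complex of PES1, BOP1 and WDR12 was likewise split, with WDR12 higher by 0.28, BOP1 not past the threshold at 0.081 and PES1 lower by 0.13 (189 to 210.4 against 171 to 193 CPM, overlapping). MRTO4 (0.085) and EBNA1BP2 (0.013) did not pass either. With the means of group and replicate set removed, the members' residuals had a median pairwise Pearson r of 0.10 over 990 pairs of genes, against 6.9e-04 over all pairs of tested genes. These residuals come from 8 shared libraries, and genes are not independent replicates.

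Stretch was then read within each set of replicates. Within replicates 1 and 2, 36 of 45 members were above 0, with a median log2 change of 0.058 (all tested genes: 50.8% above 0, median 0.0026). Within replicates 3 and 4, 17 of 45 were above 0, with a median of -0.028 (all genes: 48.7%, median -0.0033). Of the 101 further biogenesis genes described below, 73 were above 0 within replicates 1 and 2 and 42 within replicates 3 and 4. By single pairs, 36, 34, 14 and 26 members were higher after stretch in pairs 1 to 4, where 51.7%, 49.7%, 48.3% and 50.3% of all genes were. No member passed within either set (edgeR, adjusted p under 0.05 for 0.0824% and 0.192% of all genes).

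The difference between the sets was tested as an interaction. It was negative, meaning a smaller change in replicates 3 and 4, in 37 of 45 members, or 82.2% against 51.9% of all genes. Its median was -0.11 (all genes -0.0068). In the lists described below it was negative in 72 of 101 further biogenesis genes (71.3%, median -0.067). It was negative too in 17 of 21 MYC targets outside the nucleolus (81.0%), so the excess was not confined to the module. Among ribosomal protein genes it was negative in 19 of 74 (25.7%), and among MYC network genes in 9 of 17 (52.9%). All genes were read in the same wells, so these counts are not of independent observations. In edgeR's test 0 members and 0 of 14571 genes (0%) passed an adjusted p of 0.05, and 2 members had an unadjusted p under 0.05 (5.72% of all genes). These were GNL3, which changed by 0.19 in the first set and -0.07 in the second (interaction adjusted p = 0.795), and NOB1, with 0.15 and -0.081 (0.795). BOP1 came next, with 0.041 and -0.17 (adjusted p = 0.866 by edgeR). In MYC and DDX21 both sets were higher after stretch, MYC by 0.47 and 0.15 and DDX21 by 0.29 and 0.15.

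Other genes of the same pathway were read from lists drawn up from general knowledge of ribosome assembly. The lists of Pol I machinery, small subunit processome, 60S assembly and snoRNP assembly held 101 further genes with enough counts. After stretch 52 of these were higher and 49 lower (48.2% of all tested genes were higher), with a median log2 change of 0.0072. In edgeR's test 0 passed without or with the block (0% and 0.700% of all tested genes). An unadjusted p under 0.05 was found for 1 and 3 of the 101 (3.97% and 8.89% of all tested genes). The gene with the smallest p was IMP3, which encodes a protein of the U3 snoRNP. It had 8.00, 6.99, 7.55 and 8.24 CPM in control and 6.49, 6.39, 6.07 and 6.14 CPM in stretch wells, every stretch well below every control well, and a change of -0.29 ± 0.11 with the block (adjusted p = 0.367 by edgeR). The kinase RIOK1 (0.10) and WDR46 (0.076) of the processome, DDX27 (0.11), TMA16 (0.093) and TEX10 (-0.13) of 60S assembly, POLR1E (0.13), TAF1A (0.12) and TAF1D (-0.048) of the Pol I machinery, and ZNHIT6 (0.14), RPAP3 (-0.10) and ZNHIT3 (0.054) of snoRNP assembly did not pass (log2 changes with the block).

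Between the replicate sets, 47 of these 101 genes were higher and 3 lower in replicates 3 and 4 past the threshold of edgeR's test, and 51 did not pass, with a median difference of 0.14. Of all tested genes 10.1% were higher and 8.52% lower. By list the higher ones were 25 of 42 60S factors, 14 of 34 processome proteins, 4 of 12 of the Pol I machinery and 4 of 13 of snoRNP assembly. The summed level of the snoRNP assembly list did not separate the sets (608 to 625 CPM in replicates 1 and 2, 604 to 627 CPM in replicates 3 and 4), and 2 of its genes were lower past the threshold. Ribosomal protein genes, which encode the ribosome's own parts, differed little between the sets. Of 74 tested, 0 passed in edgeR's test, and their log2 differences ran from -0.07 to 0.09 with a median of -0.0052, at a median control level of 486 CPM. After stretch 0 of these 74 had an unadjusted p under 0.05 in edgeR's unblocked fit, where 3.97% of all tested genes did. In the blocked fit 1 did, where 8.89% of all tested genes did. Their changes ran from -0.10 to 0.05, and 19 were above 0 and 55 below it (48.2% of all tested genes were above 0). RPLP1 changed by -0.10, RPL13 by -0.059 and RPS21 by -0.061 with the block (0.316, 0.740 and 0.720 as adjusted p of edgeR). Ribosomal protein genes have many processed copies, and shared reads may be split among them.

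**Figure D4:**
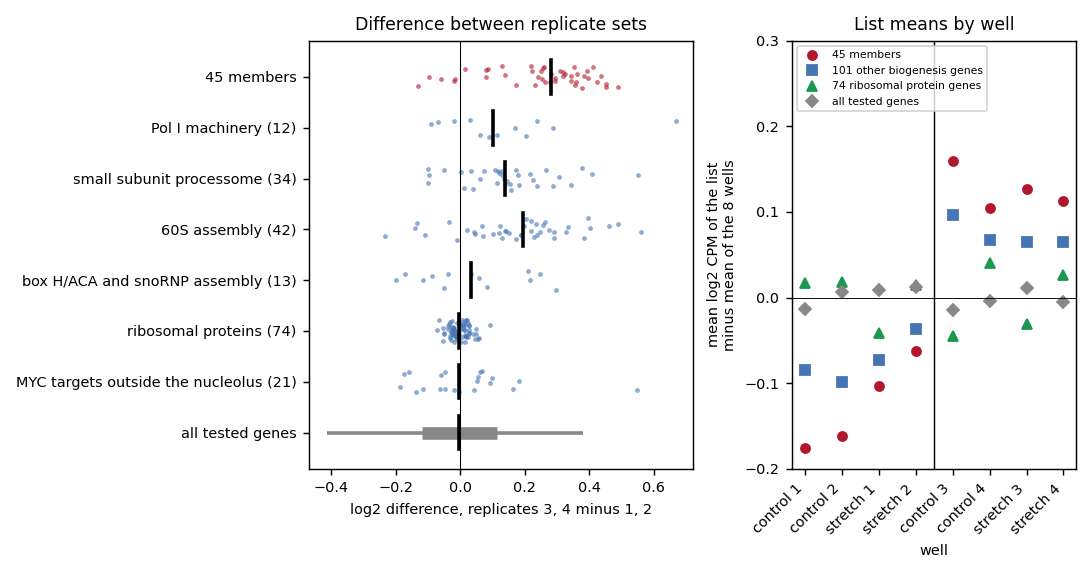
Left, log2 differences between replicates 3 and 4 and replicates 1 and 2, 1 point a gene and a black bar at the median of each list, with the 5th to 95th (thin) and 25th to 75th (thick) percentiles of all tested genes at the bottom. Right, the mean log2 CPM of each list in each well minus its mean over the 8 wells: the members and the other biogenesis genes step up to the right of the line, whereas the ribosomal protein genes and all tested genes do not.

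The MYC network and MYC targets outside the nucleolus gave no common direction. Of 17 tested partners, antagonists and regulators of MYC, 5 were higher and 12 lower after stretch (48.2% of all tested genes were higher). With the block 1 of the 17 passed (0.700% of all tested genes did). This was MXD3, a member of the MXD family that competes with MYC for MAX, which fell from 17.8, 20.97, 13.6 and 16.02 CPM in control wells to 14.4, 17.4, 10.05 and 12.2 CPM in stretch wells, lower in 4 of 4 pairs with overlapping groups. Its change was -0.35 ± 0.076 (adjusted p = 0.0443 by blocked edgeR, 0.114 under the 2-level block and 0.999 without a block). With the replicate block it did not pass under DESeq2 (adjusted p = 0.0548) or limma-voom (adjusted p = 0.0569). It passed in 6 of 9 blocked fits with all wells. It did not pass when any single pair was left out (0.0588 to 0.198 as adjusted p of blocked edgeR). MYCL changed by -0.28 and the mitotic kinase AURKA by -0.21 and did not pass (0.544 and 0.168 as adjusted p of blocked edgeR). MYCN had 0 counts in every well. Of 21 MYC targets with other functions 15 were higher and 6 lower, with a median of 0.014, and 0 passed with the block. SHMT1, SHMT2 and PRMT5, which had the smallest p without the block, changed by -0.17, -0.09 and 0.072 on the log2 scale. Between the replicate sets 3 of the 21 were higher and 4 lower past the threshold, with a median of -0.0043 (all tested genes: 10.1% higher, 8.52% lower).

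A further list held genes of nucleolar stress and of general stress responses. Nucleolar stress itself was not measured. Of 12 tested genes of this list, 9 had a log2 change above 0 and 3 below it, with a median of 0.12 without the block (all tested genes -0.0032). With the block 1 passed, as a rise, where 0.528% of all genes did. PLK2, a stress-induced kinase, rose from 18.7, 23.04, 28.9 and 23.04 CPM in control to 33.2, 36.3, 33.1 and 34.6 CPM in stretch wells, by 0.56 ± 0.086 (adjusted p = 0.00826 by blocked edgeR). Without the block its adjusted p was 0.271 in edgeR, 0.0018 in DESeq2, 0.0415 in edgeR with no filter on low counts and 0.0143 in edgeR without control replicate 3. In the blocked fit the call was lost without pair 1, 2 or 4 (0.0556, 0.0656 and 0.1102 as adjusted p of PLK2 in blocked edgeR). PLK3 (0.48), the ubiquitin ligase MDM2 (0.16) and the apoptosis effector BAX (0.095) were higher in 4 of 4 pairs and did not pass (adjusted p = 0.161, 0.137 and 0.659, edgeR with the block). With the block PLK3 passed in DESeq2 (adjusted p = 0.0133), and PLK3 and MDM2 passed in edgeR with no filter on low counts (adjusted p = 2.1e-07 and 0.0396). In 4 of the 12 (PLK2, PLK3, MDM2 and BAX) every stretch well lay above every control well, as in 1.30% of all genes, and in 0 every stretch well lay below. The 3 genes below 0 were SESN1 (-0.056), SESN2 (-0.14) and BBC3 (-0.00027). Between the replicate sets 0 of the 12 were higher and 4 lower past the threshold in edgeR's test, with a median of -0.037. Among all tested genes 10.1% were higher and 8.52% lower.

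The members do not form a genomic cluster. In the positions of the count table they lie on 25 chromosomes, with at most 5 on the same one (chromosome 4). Exon lengths ran from 985 to 9303 bases. Within their span 7 members carried at least 1 annotated snoRNA gene on their own strand (NOP56 5, NOP58 4, NCL and GNL3 3 each, and DKC1, WDR43 and TSR1 2 each). Of these host genes 6 of 7 were higher in replicates 3 and 4, with a median difference of 0.38, and of the other 38 members 28 were, with a median of 0.26. This difference was not tested.

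Exons of 11 members overlapped a gene on the opposite strand, by 44.4% of the exon bases in TSR1 (with SRR), 22.01% in POLR1B and at most 7.61% in the others (RRN3, NOP2, UTP20, NOP14, RRP12, NOB1, WDR12, NOP16 and BRIX1). The strand setting of the counting is not given in the sources used here, so the values of these genes may contain reads of the neighbour. Without them, 24 of the other 34 members were higher in replicates 3 and 4, with a median of 0.26. DDX21, MYC, NOL6 and GRWD1 overlapped no other gene.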

How the data were processed

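Polyadenylated RNA of 8 wells was sequenced from strand-specific TruSeq libraries, per the labels' protocols. The deposited values are raw read counts per gene over exons; per the submitters' processing notes the authors used FastQC 0.11.8, Trim Galore 0.6.5, STAR 2.7.3a, Subread and featureCounts. How reads with several map positions were counted, with which strand option and on which build, is not given in the sources used here. RefSeq's gene table for assembly UU_Cfam_GSD_1.0 holds 37291 of the 37952 symbols, and 37291 of these with an identical start and end, so chromosome names and snoRNA genes were taken from it. No sequence was used.

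Counts were tested in R 4.3.3 with edgeR 4.0.16 (quasi-likelihood test, robust, two-sided). Libraries were scaled with TMM factors, low genes removed with filterByExpr (minimum count 10, minimum total 15), and p-values adjusted over 14571 genes (Benjamini-Hochberg); genes under 0.05 passed. The model had a stretch term only; further models had the replicate number as a block, a block of 2 levels, the replicate set, or the interaction of set and stretch. Log2 CPM used a prior count of 2. Intervals are 95% intervals from the fitted SE, and they cover the spread between wells only. The replicate numbers were taken as pairs because deviations of same-numbered wells from their group means correlated across genes by 0.328, 0.108, 0.182 and 0.178 for replicates 1 to 4. Correlations between wells of different numbers were not computed. The difference between replicate sets enters these values, so they cannot tell pairing by single number from the division into replicate sets. The labels do not say what a number stands for. Wells of a group gave chi-squares of 5.14 to 23.6 times their degrees of freedom when their counts were compared, so none was a copy of another. The scripts were tested on simulated counts.

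Alternatives were DESeq2 1.42.0, limma-voom (limma 3.58.1), other scaling factors, other filters, the blocks, and leaving out wells or pairs. Genes given in full were the 4 of the transcription group, in each role the gene with the smallest p and that with the highest FPKM, those past the threshold, and those with the largest set difference or smallest interaction p; in the other lists the 3 with the smallest p and those past the threshold. RRP9 and the genes described beside these were added after their values were seen. The members and lists were chosen with earlier results of these data known. Of the listed genes, IMP4, RRP7A, RPL23A, RPL39, RPL41 and MIZ1 were not analysed here, and RPL32, MYCN and GDF15 had too few counts. A further item of the lists is not reported here. Plots were made in Python 3.11.15 (matplotlib 3.10.9).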

Additional observations from a re-analysis of the deposited data

Results flagged for a closer look

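Of the 88 groups of 4 wells examined (44 genes described in full, control and stretch), 1 held a well whose gap to its nearest neighbour, as a share of the range of the group, passed Dixon's limit. Chance gives about 1 in 20 such groups, or 4.4 here. The ribosomal protein gene RPLP1 had 921 CPM in stretch replicate 2 and 831 to 840.4 CPM in the other stretch wells. The control replicates 1 to 4 had 875, 952, 883 and 959.8 CPM.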

How the results depend on the processing

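The count of members past the threshold after stretch (0) was the same in the 7 other fits without a block, with 0 or 1 member at an unadjusted p under 0.05, and in the 8 fits without 1 well. The replicate block gave 1 member with edgeR, DESeq2, the size factors of DESeq2, scaling by upper quartile or library size only, and at least 10 counts in every well, 2 with limma-voom, 3 with no filter on low counts, and 1 with the block of 2 levels; leaving out a pair of the blocked fit gave 0 to 1. Over all genes the count was 0 and became 40 with DESeq2, 11 with no filter, 102 with the replicate block, 58 with the block of 2 levels, and 0 to 12 (without control replicate 3) without 1 well. With the block it was 145 under DESeq2, 122 under limma-voom, 105 with the size factors of DESeq2, 112 with scaling by upper quartile, 111 by library size only, 448 with no filter, 97 with at least 10 counts in every well, and 43, 67, 186 and 74 without pair 1, 2, 3 and 4. The cause of these differences was not tested. The members' median change of 0.013 ranged from -0.028 to 0.080 without 1 well (0.080 without control replicate 3), and from 0.0034 to 0.042 without 1 pair of the blocked fit. Between replicate sets 32 to 36 members passed under every alternative run, over all genes 1721 (without stretch replicate 1) to 2816 without 1 well and 2637 to 3053 otherwise, and the median of 0.28 ranged from 0.26 to 0.31. For the interaction 0 members passed under every alternative, over all genes 7 with limma-voom, 40 with no filter and 0 to 47 (without control replicate 4) without 1 well.

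Of 560 values of the 20 members given in full, 497 kept sign and side, 13 passed where the reported fit did not, and 50 turned sign. PES1 went from -0.0015 to 0.0021, 0.0020, 2.3e-04 and 0.0021 with upper-quartile factors, library size only, no filter and at least 10 counts in every well, and with the replicate block to 0.0042, 0.0036, 0.0016 and 0.0034. The other turns of sign came from leaving out wells. Without 1 well the change ranged from -0.053 to 0.034 for PES1, -0.038 to 0.092 for POLR1A, -0.050 to 0.13 for POLR1B, -0.067 to 0.0016 for FBL, -0.094 to 0.042 for NAT10, -0.050 to 0.12 for NOP2, -0.024 to 0.088 for PNO1, -0.049 to 0.15 for NOL6, -0.0023 to 0.24 for GRWD1, -0.045 to 0.15 for GNL3 and -0.049 to 0.10 for NOB1. In the fit with the replicate block, without pair 1, POLR1A was at -0.0063, NAT10 at 0.0045, PNO1 at -0.023 and NOB1 at -0.0020; without pair 2, NOP2 was at -0.0054, PES1 at 0.029, NOL6 at -0.010 and NOB1 at -0.0085; and without pair 4 PES1 was at 0.028. DDX21 ranged from 0.12 to 0.30 and passed in 9 of 9 blocked fits with all wells and in 0 of 16 fits without a block. With the replicate block and no filter on low counts, AURKA and SHMT1 also passed (adjusted p = 0.0041 and 0.0481 by edgeR). GRWD1, whose control mean of 13.3 CPM was the lowest among the members, had their largest SE with the block (0.091).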
